A study of Mus musculus with 2 samples.

Results

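The 44 genes described here encode the bone morphogenetic protein (BMP) and transforming growth factor beta (TGF-beta) pathway. They were sorted by role into 10 ligands, 10 inhibitors, 2 genes of the latent TGF-beta binding protein family, 10 receptors, 8 Smads and 4 target genes. They were taken by symbol from the 22180 genes of an Affymetrix Mouse Gene 2.0 ST array, and all 44 had a value, each from 1 probe cluster. The samples were dorsal skin of male BALB/cAJcl mice, 7 weeks old, with 1 array for a saline control and 1 array for FGF18, a fibroblast growth factor. For FGF18, the design text describes depilation to set off anagen, the growth phase of the follicle, and 100 µg of FGF18 given intraperitoneally 6 days later in saline with 5 µg/µl heparin. Whole-body γ-rays at 6 Gy came 24 h after the injection, and skin was taken 4 h after the γ-rays. The labels do not state whether the saline control was also depilated or received heparin or γ-rays, nor how many mice gave the RNA. FGF18 and these other conditions therefore cannot be told apart. With 1 array per group there is no replicate check and no p-value, and every difference below is one between these arrays. In whole skin, fewer cells of a type and less RNA per cell cannot be told apart.

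BMP and TGF-beta ligands are secreted dimers that bring type I and type II receptor kinases together. The type I receptor then phosphorylates Smad proteins, which join Smad4, enter the nucleus and switch target genes such as the Id genes. In the hair follicle, BMP signals are known to hold stem cells at rest and to drive hair shaft differentiation in the growing follicle, noggin from the dermal papilla is known to help start growth, and TGF-beta2 is known as a factor of regression.

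Most of the 44 members read slightly higher on the FGF18 array, and among the members that read lower the target gene Id4 differed most. Differences are FGF18 minus saline in log2(intensity + 1), and counts were limited to genes whose mean over both arrays reached the median over genes, an intensity of 16.7. Of the 44 members, 35 reached that level. Of these 35, 30 were higher on the FGF18 array (85.7%), 4 were lower and 1 was equal, against 59.4% higher among all 11090 genes at that level. The median difference was 0.25 for the members and 0.07 for all genes at that level. The lower members were Id4, Inhba, Grem1 and Tgfbr2. Part of the shift of all genes depended on brightness, and after subtraction of that intensity trend 27 of the 35 members were higher (77.1%), against 49.7% of all genes, with a member median of 0.18.

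**Figure D1:**
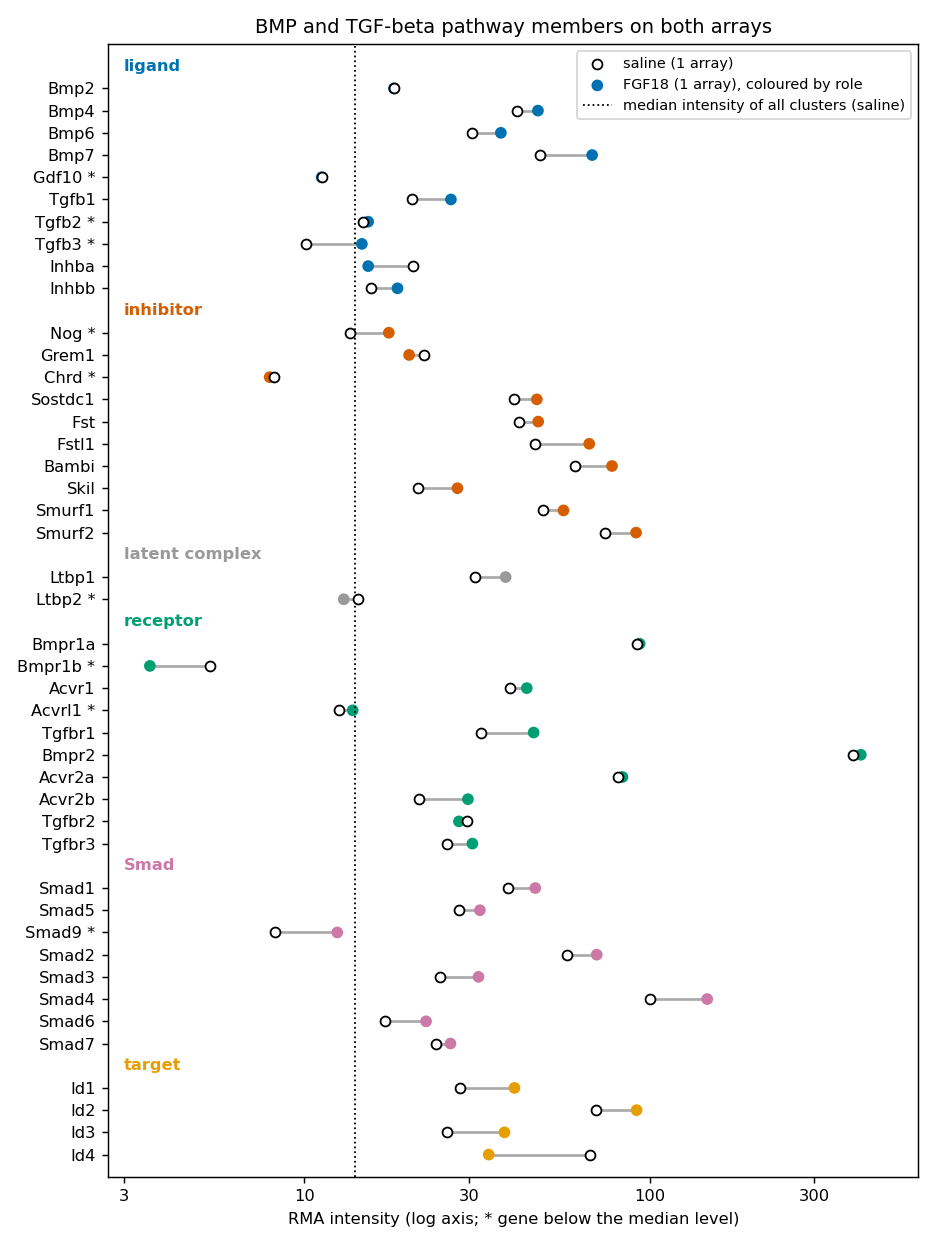
RMA intensity on a log axis for each of the 44 members on the saline array (open points) and the FGF18 array (filled points, coloured by role), with the saline array's median over all clusters as a dotted line. In most rows the filled point lies to the right of the open one, whereas for Id4 it moves from 67.2 to 34.2.

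The differences were small. No member reached 1.5-fold higher, where 3.64% of all genes at that level did, and 1 member, Id4, reached 1.5-fold lower, where 4.63% did. Over all genes these were 404 higher and 514 lower, and the split was 266 and 650 after trend subtraction and 119 and 300 with a pseudocount of 16. A finer threshold came from 319 gene symbols that had at least 2 clusters at that level, where the standard deviation (SD) between clusters of one symbol was 0.24 log2 units. This SD describes disagreement between probe sets, not between mice. By more than this SD, 18 of the 35 members (51.4%) were higher and 2 were lower (Id4 and Inhba). Among all genes at that level, 26.2% were higher and 15.3% lower by that much. That threshold was chosen after the values were seen.

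**Figure D2:**
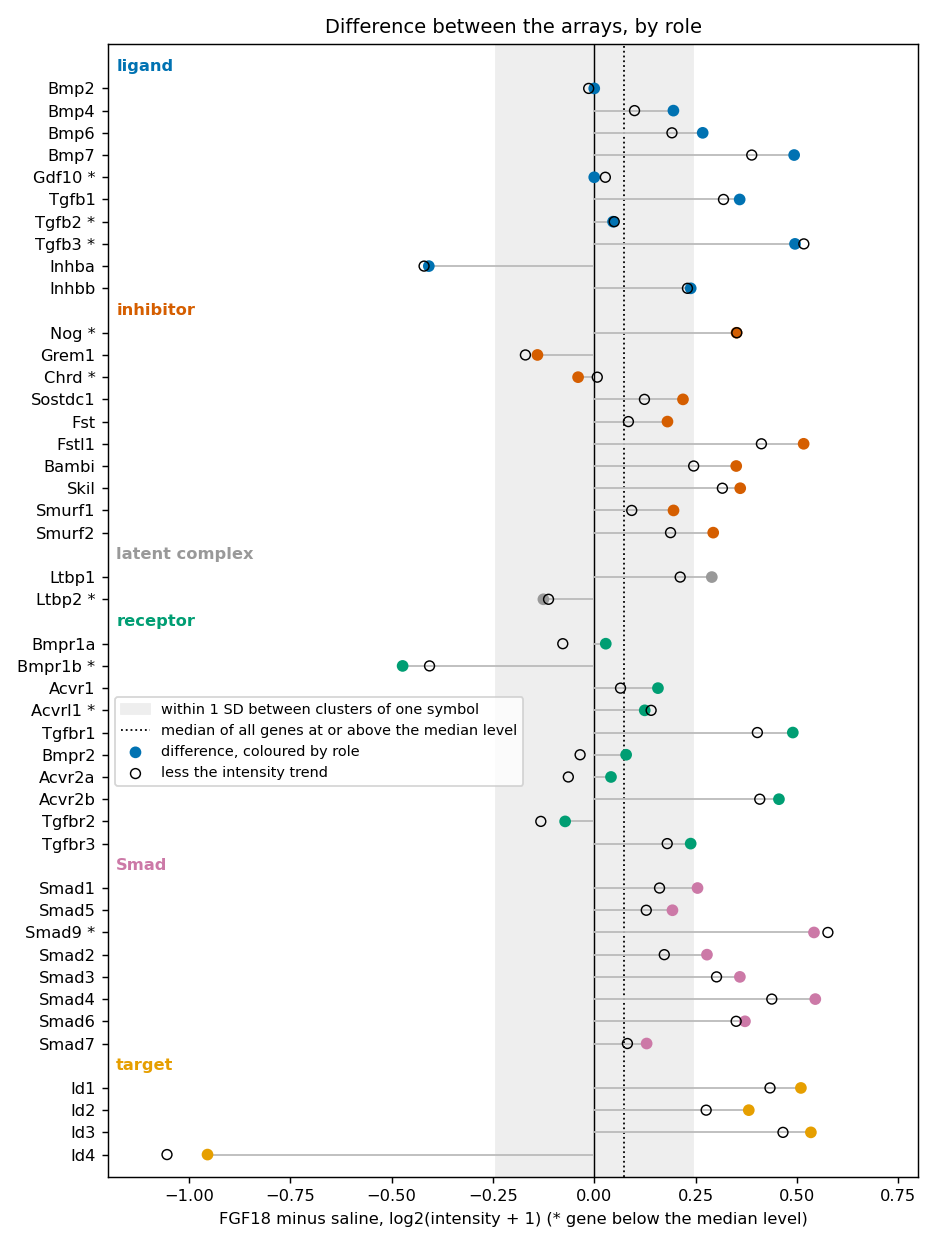
Difference between the arrays (FGF18 minus saline, log2(intensity + 1)) for each member, filled points as measured and open points after subtraction of the intensity trend, with the band of 0.24 either side of 0 showing the SD between clusters of one symbol. Every Smad lies to the right of 0, most receptors lie inside the band, and Id4 lies at -0.95.

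Among the ligands, Bmp7 had the highest difference of those at or above the median level. The BMP gene Bmp7 read 48.1 in saline and 68.1 after FGF18, a difference of 0.49. Of all genes at that level, 6.29% had a larger difference than Bmp7. Bmp6, known from suprabasal keratinocytes, read 30.6 and 37.1, a difference of 0.27. Bmp4, a BMP of the dermal papilla and dermis, read 41.3 and 47.5, a difference of 0.20 that lay within the SD between probe sets. Bmp2, a BMP of the hair matrix and precortex, read 18.2 on both arrays with identical deposited values. The 4 BMP genes thus ranged from no difference to 0.49, with none lower. Gdf10, which encodes BMP3B, also had identical values of 11.2, and 2026 of the 41345 clusters of the table shared this feature.

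The TGF-beta and activin genes did not all lie on the same side. Tgfb1, a TGF-beta made by many cells, read 20.5 in saline and 26.6 after FGF18, a difference of 0.36. Tgfb2 read 14.8 and 15.3, nearly the same on both arrays. Tgfb3 read 10.1 in saline and 14.7 after FGF18. Its saline value lay below that array's median of 14.0, so no fold is given. Inhba, the gene of the activin A subunit, which is known to be induced in wounded skin, read 20.6 in saline and 15.3 after FGF18, a difference of -0.41 and the lowest among the ligands. Inhbb, the gene of the activin B subunit, read 15.6 and 18.6, a difference of 0.24 that lay just within the SD between probe sets. The activin subunit genes therefore lay on opposite sides of 0, but both read near the median level of 16.7. With a pseudocount of 16, Inhba came to -0.23, also within that SD. Of the 7 ligands at or above the median level, 5 were higher, 1 lower and 1 equal, with a median of 0.24. Among all genes at that level, 59.4% were higher, with a median of 0.07.

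Most inhibitors, like most ligands, were brighter on the FGF18 array. Of 8 at or above the median level, 7 were higher and 1 was lower, with a median difference of 0.26 (0.16 after trend subtraction). The share higher among all genes at that level was 59.4%. Nog, the gene of the BMP antagonist noggin, read 13.5 in saline and 17.6 after FGF18. The first of these was below the array's median. Chrd, which encodes the BMP antagonist chordin, read 8.18 and 7.93, below the median on both arrays. Grem1, which encodes the BMP antagonist gremlin, read 22.3 in saline and 20.1 after FGF18, a difference of -0.14 that lay within the SD between probe sets. The classical secreted BMP antagonists were thus dim or near equal. Sostdc1, which encodes ectodin (also called Wise), an inhibitor of BMP and Wnt signals, read 40.3 and 47.1, a difference of 0.22. Fst, the gene of the activin-binding protein follistatin, read 41.8 and 47.5, a difference of 0.18. Fstl1, which encodes a secreted follistatin-like glycoprotein that binds BMP4, read 46.4 in saline and 66.8 after FGF18. This difference of 0.52 was the highest of the inhibitors. Among all genes at that level, 5.45% had a larger difference than Fstl1.

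All 4 inhibitors of the membrane or the cell interior read higher on the FGF18 array, 3 of them by more than the SD between probe sets. Bambi, a decoy receptor that lacks a kinase domain, read 60.8 in saline and 77.8 after FGF18, a difference of 0.35. Skil, which encodes the nuclear corepressor SnoN, read 21.4 and 27.7, a difference of 0.36. Bambi and Skil are also known as genes that the pathway itself induces. The Smurf genes encode ubiquitin ligases that mark Smads and receptors for degradation. Smurf2 read 74.3 and 91.3, a difference of 0.29, and Smurf1 read 49.0 and 56.3, a difference of 0.20. Ltbp1 encodes a latent TGF-beta binding protein that tethers the inactive ligand in the matrix, and Ltbp2 is of the same family by name. Ltbp1 read 31.1 in saline and 38.3 after FGF18, a difference of 0.29, while Ltbp2 read 14.3 and 13.0, the latter below the FGF18 array's median of 13.8.

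The receptors had the smallest median difference of the roles. Of 8 at or above the median level, 7 were higher and 1 lower, with a median difference of 0.12, where 59.4% of all genes were higher. After trend subtraction the receptors split evenly, 4 on each side of 0, around a median of 0.01. Bmpr1a, Bmpr2 and Acvr2a were nearly equal on both arrays. Bmpr1a, the main type I BMP receptor gene of the follicle, read 91.6 in saline and 93.5 after FGF18, a difference of 0.03. Bmpr2, the type II BMP receptor gene, read 387 and 409, a difference of 0.08. Acvr2a, a type II receptor gene for activins and BMPs, read 81.0 and 83.4, a difference of 0.04. The differences of Bmpr1a, Bmpr2 and Acvr2a turned to between -0.08 and -0.03 after trend subtraction, so their direction is not settled. Acvr1, the type I receptor gene for ALK2, read 39.4 and 44.0, a difference of 0.16. Bmpr1b read 5.34 in saline and 3.57 after FGF18. Acvrl1, a type I receptor gene of endothelium, read 12.6 and 13.8. Both genes are below the array medians and not shown above background.

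Of the receptors at or above the median level, Tgfbr1 and Acvr2b exceeded the SD between probe sets. Among all genes at that level, 26.2% were higher by more than that SD. Tgfbr1, the type I receptor gene for TGF-beta, read 32.6 in saline and 46.1 after FGF18, a difference of 0.49. Acvr2b, the other type II receptor gene for activins and BMPs, read 21.4 and 29.8, a difference of 0.46. The partners of Tgfbr1 had lower differences, and neither exceeded the SD between probe sets. Tgfbr2, the type II receptor gene for TGF-beta, read 29.5 and 28.0, a difference of -0.07, and Tgfbr3, the gene of the coreceptor betaglycan, read 25.8 and 30.7, a difference of 0.24.

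All 7 Smad genes at or above the median level read higher on the FGF18 array, 5 of them by more than the SD between probe sets. Among all genes at that level, 59.4% were higher, and 26.2% were higher by more than that SD. All 7 Smad genes were also higher after trend subtraction, where 49.7% of all genes were. Smad1 and Smad2 then came to 0.16 and 0.17, within that SD. The median was 0.28, and 0.17 after trend subtraction. Smad4, the partner that BMP and TGF-beta Smads share, read 100.2 in saline and 147 after FGF18, a difference of 0.55 or 1.46-fold. It was the highest of the 35 members, and 4.45% of all genes at that level had a larger difference. Of the Smads that carry BMP signals, Smad1 read 38.9 and 46.6, a difference of 0.25. Smad5 read 28.1 and 32.2, a difference of 0.19. Smad9 read 8.24 and 12.5, below the median on both arrays. Of the Smads that carry TGF-beta and activin signals, Smad3 read 24.7 and 31.9, a difference of 0.36. Smad2 read 57.7 and 70.2, a difference of 0.28. The inhibitory Smads are known feedback genes of the pathway. Smad6, which restrains BMP signals, read 17.2 in saline and 22.5 after FGF18, a difference of 0.37. Smad7, which restrains TGF-beta signals, read 24.1 and 26.5, a difference of 0.13 that lay within the SD between probe sets.

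The Id genes, which encode inhibitors of helix-loop-helix transcription factors and are known BMP targets, split into 3 genes that were higher and 1 that was lower. Id3 read 25.9 in saline and 38.0 after FGF18, a difference of 0.53 or 1.45-fold. Id1 read 28.2 and 40.6, a difference of 0.51 or 1.42-fold. Id2, known from the dermal papilla and hair matrix, read 70.1 and 91.6, a difference of 0.38 or 1.30-fold. Id1, Id2 and Id3 thus lay near each other and each above the SD between probe sets. Id4 read 67.2 in saline and 34.2 after FGF18, a difference of -0.95 or 1.94-fold lower. Of the 11090 genes at or above the median level, 199 (1.79%) had a smaller difference than Id4. Its difference was -0.73 with a pseudocount of 16 and -1.05 after trend subtraction. The median of 0.45 over the 4 Id genes hides this split.

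Because the Id genes lay on both sides of 0, the 250 bases before their RefSeq starts (build GRCm38.p6) are shown for Id2, Id3 and Id4, read 5′ to 3′ on the gene's strand, outside the transcript. A window for Id1 was not used here. Capitals mark GGCGCC, which is its own reverse complement and forms the core of known BMP response elements, and GTCTG or its reverse complement CAGAC, the Smad box. The windows are chr12:25096093-25096342 (minus strand) for Id2, chr4:136143572-136143821 (plus strand) for Id3 and chr13:48260866-48261115 (plus strand) for Id4.
Id2: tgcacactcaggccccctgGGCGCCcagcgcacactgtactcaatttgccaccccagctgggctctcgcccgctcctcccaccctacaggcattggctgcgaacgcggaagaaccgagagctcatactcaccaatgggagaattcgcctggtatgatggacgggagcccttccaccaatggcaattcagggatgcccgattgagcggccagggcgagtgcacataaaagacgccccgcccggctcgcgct
Id3: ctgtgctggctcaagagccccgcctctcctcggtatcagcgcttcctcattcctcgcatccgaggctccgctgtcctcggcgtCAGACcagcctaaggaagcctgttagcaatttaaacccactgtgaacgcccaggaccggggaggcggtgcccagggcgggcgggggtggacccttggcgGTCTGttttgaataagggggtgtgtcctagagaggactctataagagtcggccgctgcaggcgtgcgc
Id4: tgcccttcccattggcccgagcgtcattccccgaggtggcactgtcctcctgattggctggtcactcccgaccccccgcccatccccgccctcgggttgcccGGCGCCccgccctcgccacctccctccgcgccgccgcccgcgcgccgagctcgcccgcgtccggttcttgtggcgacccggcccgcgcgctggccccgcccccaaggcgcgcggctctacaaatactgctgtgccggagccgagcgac
Id2 and Id4, which lay on opposite sides of 0, each held 1 GGCGCC, starting 231 and 148 bases before the start, and no Smad box in this window. Id3, which lay with Id2, held CAGAC at 167 and GTCTG at 68 bases before the start and no GGCGCC. The marked motifs did not overlap. GGCGCC was present in 9.59% of all 32851 promoter windows of this length, and the Smad box in 42.2%. Across the 36 windows found for 30 of the 44 members, 10 (27.8%) held GGCGCC and 17 (47.2%) held a Smad box. GGCGCC consists of G and C only, and the shares were not adjusted for base composition. The G and C content was 62.8% in the Id2 and Id3 windows and 75.6% in the Id4 window. These matches describe letters in the windows and not binding.

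**Figure D3:**
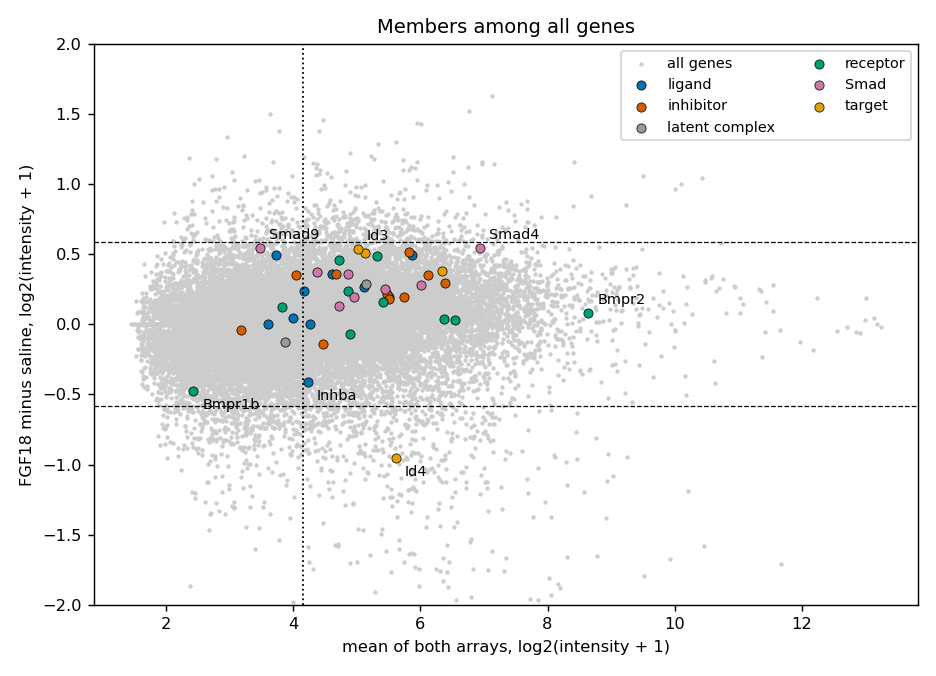
Difference between the arrays (FGF18 minus saline) against the mean of both arrays, both in log2(intensity + 1), for all genes (grey) and the members (coloured by role), with the median level dotted and 1.5-fold dashed. The members lie inside the 1.5-fold lines except Id4, and 34 genes with differences beyond 2 are outside the plotted range.

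Other genes of the pathway did not show the members' shift as a whole. A list of 102 further symbols, which names some genes by an old and a current symbol, had 91 measured and 61 at or above the median level. Of these 61, 36 were higher, 23 lower and 2 equal, against a share of 59.4% higher among all genes at that level. Their median was 0.05, and -0.03 after trend subtraction, against 0.07 for all genes before it. At 1.5-fold or more, 4 were higher and 2 lower, where 3.64% and 4.63% of all genes at that level were. Thbs1, which encodes thrombospondin-1, an activator of latent TGF-beta, had the highest difference, reading 15.0 in saline and 32.8 after FGF18 (1.08, or 2.11-fold). Mstn, the gene of the muscle growth inhibitor myostatin, had the lowest, reading 103 and 49.9 (-1.03, or 2.04-fold lower). Rgmb, a BMP coreceptor gene also called Dragon, read 78.0 and 45.6, a difference of -0.76.

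The homeobox genes of the BMP-responsive list did not lie on the same side. Msx2, known from the hair matrix, read 27.0 in saline and 43.8 after FGF18, a difference of 0.68, and Dlx3 read 77.8 and 125, a difference of 0.67. Dlx5 read 33.3 and 26.6, a difference of -0.31. Across the list of BMP-responsive genes, 4 of 8 were higher, 3 lower and 1 equal, with a median of 0.12. In this list Hey1, a hairy-related repressor gene, read 38.7 and 28.3 (-0.44). TGF-beta-responsive genes had 10 of 15 higher. Both counts stand against 59.4% of all genes at or above the median level. The median of the 15 TGF-beta-responsive genes was 0.09, which was -0.02 after trend subtraction. Fn1, the fibronectin gene, had the highest difference among them, reading 39.9 and 64.5 (0.68), while Col1a1, a collagen I chain gene, read 408 and 323 (-0.33) and Cdkn2b, which encodes the cell cycle inhibitor p15, read 45.2 and 32.4 (-0.47). Col1a1, Cdkn2b, Dlx5 and Hey1 were picked out after their values were seen.

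The remaining lists had few differences past 1.5-fold. Latent complex and activator genes beyond the members had 5 of 6 higher with a median of 0.32. Further inhibitors had 10 of 15 higher with a median of 0.15, from Twsg1, whose product modulates BMP binding by chordin, at -0.50 to Ctdsp1, a phosphatase gene, at 0.54. Further ligands had 2 of 5 higher with a median of -0.09, and further receptors 2 of 4 with a median of -0.05. Smad adaptors and partners had 3 of 8 higher, 4 lower and 1 equal with a median of -0.03, from Zfyve9, the gene of the Smad anchor SARA, at -0.27 to the deubiquitinase gene Usp15 at 0.11.

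**Figure D4:**
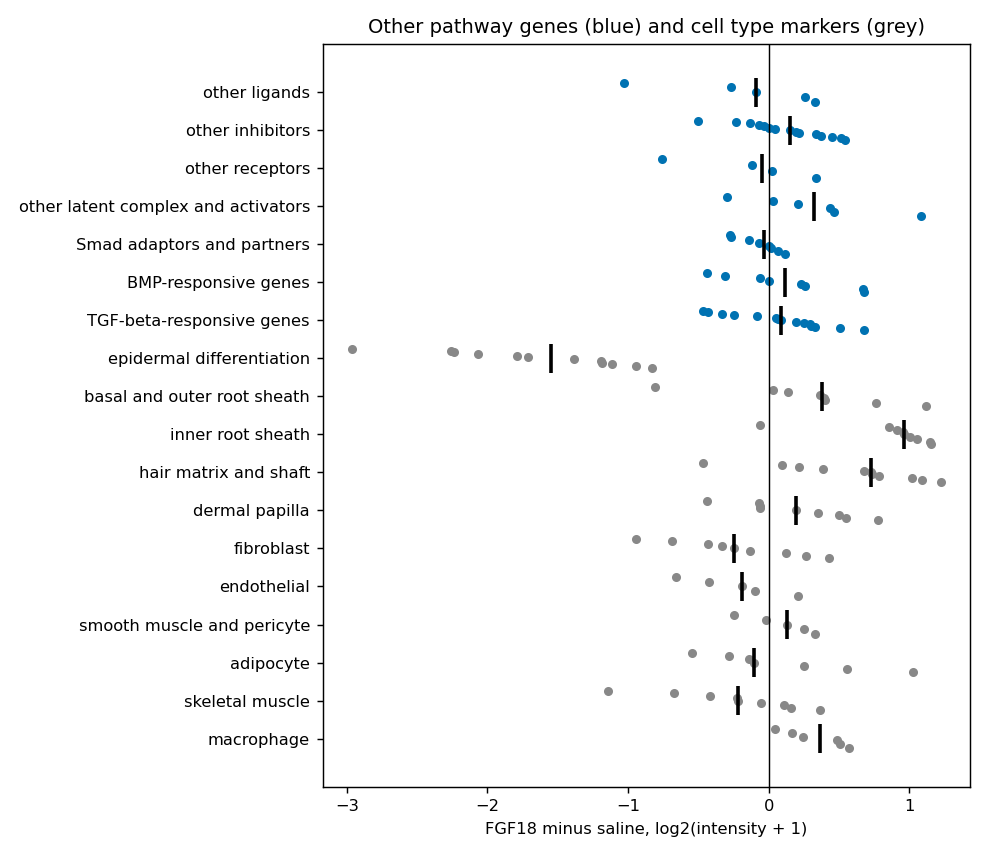
Difference between the arrays (FGF18 minus saline, log2(intensity + 1)) for genes at or above the median level in each list of other pathway genes (blue) and cell type markers (grey), with a bar at each median. Pathway medians lie between -0.09 and 0.32, while epidermal differentiation markers have a median of -1.55 and inner root sheath markers one of 0.96.

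The skin label was met by its defining markers: the keratinocyte gene Krt10 read 5892 on the saline array and 1799 on the other, and Krt14 read 575 and 328. Markers of several skin compartments differed by more than the pathway did. Of the epidermal differentiation markers at or above the median level, all 12 were at least 1.5-fold lower (Krt1, Casp14, Flg, Ivl, Krtdap, Krt10, Dsc1, Dsg1a, Krt77, Sbsn, Lor and Calml3). Their list's summed intensity was 19007 in saline and 5526 after FGF18. Sums here and below cover all measured genes of a list, also those below the median level that the counts leave out. For comparison, 59.4% of all 11090 counted genes read higher. Of the same genes, 3.64% passed 1.5-fold higher and 4.63% passed 1.5-fold lower. Inner root sheath markers were higher in 8 of 9, each of the 8 by at least 1.5-fold (Krt25, Krt26, Krt27, Krt28, Krt71, Krt72, Krt73 and Tchh), with summed intensities of 3186 and 6278. Hair matrix and shaft markers were higher in 10 of 11, 7 of them by at least 1.5-fold (Msx2, Krt33a, Krt35, Lef1, Krt82, Hoxc13 and Krt31), with sums of 717 and 1126. Basal and outer root sheath markers were higher in 7 of 8 with sums of 1678 and 1850, with Krt17 and Krt75 at least 1.5-fold higher and Krt14 lower by that much. Inner root sheath, hair matrix and shaft markers thus mostly read higher, and those of the differentiated epidermis lower, beside the members.

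Mesenchymal and vascular markers differed less. Dermal papilla markers were higher in 5 of 9, with sums of 533 and 710, and Wif1 passed 1.5-fold. This 5 of 9, and the 3 of 5 for smooth muscle and pericyte markers below, lay near the 59.4% higher among all counted genes. Fibroblast markers were lower in 6 of 9, with sums of 1168 and 1063 and with Lum and Dpt at least 1.5-fold lower. Endothelial markers were lower in 4 of 5, with sums of 169 and 156 and Cdh5 at least 1.5-fold lower, while smooth muscle and pericyte markers were higher in 3 of 5 (527 and 585; Rgs5 at -0.25, Acta2 at 0.33). Adipocyte markers were lower in 4 of 7 (596 and 773), with Plin4 at least 1.5-fold higher. Fabp4, picked out after its values were seen, read 371 and 545 and made up most of both sums. Skeletal muscle markers, the compartment in which Mstn is known to be made, were lower in 6 of 9 (5253 and 4762), with Casq1 and Myh2 at least 1.5-fold lower. All 6 macrophage markers at that level were higher (182 and 238; Csf1r at 0.04, Lyz2 at 0.57). The lowest marker value over all cell type lists was 3.90, for the epidermal marker Lce1a1 on the FGF18 array. It lay below that array's median of 13.8 and is not shown above background. The part of these cell types in the members' differences was not tested.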

How the data were processed

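Total RNA of 2 skin samples was hybridised to 2 Affymetrix arrays, and groups were taken from the sample labels. The authors processed the arrays in Affymetrix Expression Console by RMA, per the submitters' processing notes. RMA corrects background, brings the arrays to a shared distribution and summarises probes. No software version is given there. The deposited intensities ran from 1.39 to 11532 and were therefore taken as linear, and the number of arrays limits their precision.

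Clusters with a single symbol in the platform annotation (23521 of 41345) gave 22180 genes, averaged per symbol as log2(intensity + 1). The 44 members matched RefSeq (GRCm38.p6) by Entrez identifier. The intensity trend was a lowess curve of difference on mean over all genes (span 0.3, statsmodels 0.14.6). No fold is given where a value lies below its array's median. Named genes were all members and, from the other lists, those past 1.5-fold, or the highest and lowest. Members and lists were chosen with earlier results of these data known. Counting was tested on simulated data. Alternatives were other pseudocounts, filters, centring, trend subtraction, brightest clusters, clusters with several symbols and a 2-fold threshold.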

Additional observations from a re-analysis of the deposited data

How the results depend on the processing

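With 1 array per group, no setting here carries a test. The 44 members' differences were recomputed under 6 alternatives, which gave 264 values. Of these, 261 moved by less than the SD between probe sets (0.24). The exceptions were the dim genes Tgfb3, Smad9 and Bmpr1b with a pseudocount of 16. For 38 of the 44 members the sign was the same under all 6. A change of pseudocount cannot turn the sign of a gene with 1 cluster, and each member has 1. Under trend subtraction the sign turned for Acvr2a, Bmpr1a, Bmpr2 and Chrd, and the equal genes Bmp2 and Gdf10 came to -0.01 and 0.03. The median over all genes was 0, so centring altered no value. Taking the brightest cluster could alter no member's value either. With the filter at the 75th percentile, 18 members were counted and 17 of them were higher (94.4%), where 64.1% of all 5545 genes were. By more than the SD, 9 of the 18 were higher and 1 was lower. The median of the target genes was then -0.29, from Id2 and Id4 alone. With a pseudocount of 16, 10 members were higher by more than the SD and 1 was lower. After trend subtraction, 13 members were higher by more than the SD and 2 were lower. The SD of the main setting was used throughout. The share of all genes past it was not computed for these alternatives. At a 2-fold threshold the count of lower members was 0. No paired analysis was possible because each group has 1 array.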

Other observations

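Genes that act beside the pathway and are on none of the lists were read after the other values were seen. Id proteins are known to bind E proteins, a class of helix-loop-helix factors. Tcf12, an E protein gene, read 69.4 in saline and 94.9 after FGF18, a difference of 0.45, and Tcf3 read 35.2 and 44.7, a difference of 0.34. Tcf4, the other E protein gene, read 36.9 and 36.8, near equal. Proprotein convertases cut BMP and TGF-beta precursors to their active form. Pcsk6, which encodes PACE4, read 61.7 and 47.6, a difference of -0.37, while Furin read 93.1 and 90.2 (-0.04) and Pcsk7 read 30.3 and 28.5 (-0.09). Pcsk5 read 10.8 and 11.9, below both array medians.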
